A study of Mus musculus with 6 samples.

Results

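The transcripts described here encode 10 carriers that bring glucose and amino acids into T cells and move lactate across the plasma membrane: Slc2a1 and Slc2a3 for glucose, Slc1a5, Slc7a5, Slc3a2, Slc7a1, Slc38a1 and Slc38a2 for amino acids, and Slc16a1 and Slc16a3 for lactate. They were chosen by name, and each was read from the transcript cluster that carries its symbol and has the highest mean over the 6 arrays, so that 10 of the 23410 tested clusters, which carry 19938 symbols, are members. CD4+TCRβ+ cells were sorted from axillary, brachial and inguinal lymph nodes of naive female mice aged 8 weeks, each array holding cDNA amplified from the RNA of a pool of 5 mice. There were 3 pools of B6 (C57BL/6J) and 3 of B6-ChrYSJL, a consomic strain in which the B6 Y chromosome (ChrY) is replaced by that of SJL. The females inherit no ChrY, so the groups differ in the ChrY of their sires, and the comparison asks whether it leaves a trace in the T helper cells of daughters. Every mouse had the same C57BL/6J background, none had been immunized or treated, and a pool gives no value for a single animal.

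A resting T cell takes up little glucose and few amino acids. After engagement of its antigen receptor it places glucose carriers and amino acid exchangers on its surface, a step on which growth and effector function depend, and the lactate made by glycolysis leaves through proton-coupled carriers. The carriers are under the control of mTOR complex 1, Myc and, in low oxygen, HIF-1α, and much of their regulation takes place after transcription, which an array does not measure.

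All 10 transporter transcripts lay above the background level on every array. Their strain means differed by at most 0.13 on the log2 scale, and no member passed the test of the strain difference. At an FDR of 0.05 in limma, 0 of 10 members were called, where 4 of the 23410 tested transcripts, 0.0171%, were. At an unadjusted p under 0.05, 0 of 10 were called as well, where 10.6% of all tested transcripts were, 5.92% lower and 4.69% higher in B6-ChrYSJL. All 10 differences were on the low side of zero in B6-ChrYSJL with the deposited values. So were 51.1% of all tested transcripts and 55.6% of those above background. Of the members, 8 were when the values were quantile-normalized again and 7 when B6 pool 3 was left out. The median difference of the members was −0.07, beside −0.0036 over all tested transcripts and −0.02 over those above background.

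The background level, 5.98, was set from 1205 transcripts of olfactory and vomeronasal receptors, which have no known use in T cells: 95% of them had a lower mean over the arrays. Of all tested transcripts, 61.5% were above it. Arrays correlated with each other at 0.995 to 0.996. Values are log2 signals after robust multiarray averaging (RMA), and a difference always means B6-ChrYSJL minus B6. Probes of different genes bind with unequal strength, so the level of one transporter cannot be ranked against that of another. In bulk RNA, fewer cells that use a transporter and less transcript per cell cannot be told apart.

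**Figure D1:**
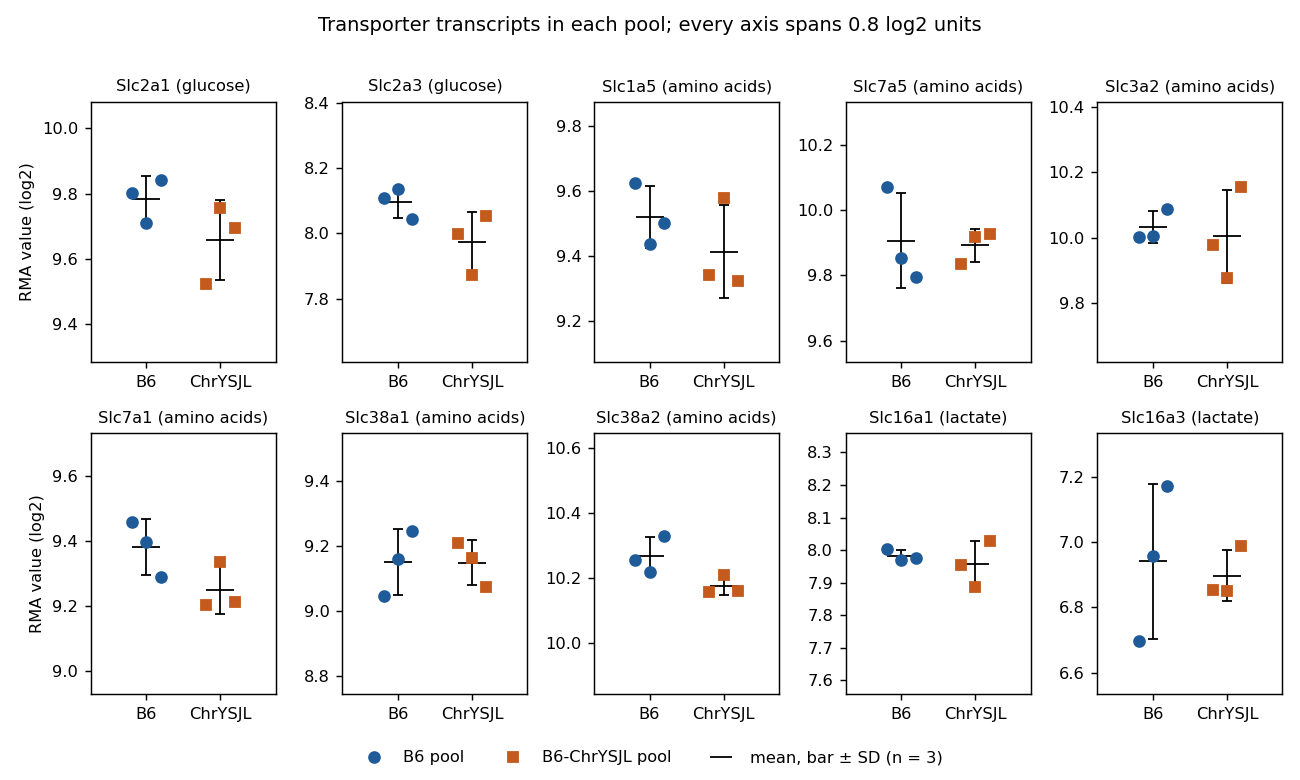
RMA value (log2) of the 10 transporter transcripts in each pool, with B6 pools as circles, B6-ChrYSJL pools (labelled ChrYSJL) as squares and the mean ± SD of 3 pools as bars; every axis spans 0.8 log2 units. The groups overlap for each transporter except Slc38a2, where a gap of 0.0099 separates the lowest B6 pool from the highest B6-ChrYSJL pool.

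Glucose enters T cells mainly through Slc2a1 (GLUT1), which activated cells need for growth, and Slc2a3 (GLUT3), a carrier of high affinity. Slc2a1 read 9.80, 9.71 and 9.84 in B6 pools 1 to 3 and 9.52, 9.76 and 9.69 in B6-ChrYSJL pools 1 to 3. The 2 highest values were from B6 and the 2 lowest from B6-ChrYSJL, with B6-ChrYSJL pool 2 above B6 pool 2. The B6 mean was 9.78 ± 0.07 and the B6-ChrYSJL mean 9.66 ± 0.12 (SD of 3 pools each, as for every SD here), a difference of −0.13 ± 0.08 (SE; 95% interval −0.31 to 0.06) with an FDR of 0.611. On the linear scale this is a ratio of 0.916, with an interval of 0.805 to 1.04. Without B6-ChrYSJL pool 1 the difference was −0.06.

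Slc2a3 read 8.11, 8.14 and 8.04 in B6 and 8.00, 7.87 and 8.05 in B6-ChrYSJL. The groups met only at B6-ChrYSJL pool 3, which lay 0.0098 above B6 pool 3. Slc2a3 differed by −0.12 ± 0.07 (SE; interval −0.29 to 0.04), a ratio of 0.919 (0.820 to 1.03), with an FDR of 0.585, and by −0.07 without B6-ChrYSJL pool 2. The balance of the glucose carriers was taken as the value of Slc2a1 minus that of Slc2a3 within an array, and it was 1.69 ± 0.11 in B6 and 1.68 ± 0.18 in B6-ChrYSJL. That balance moved by −0.0053, with p = 1 in an exact two-sided permutation test, in which 3 pools against 3 cannot give a p below 0.1.

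Slc7a5 (LAT1) exchanges large neutral amino acids such as leucine and works only when joined to Slc3a2 (CD98), the heavy chain that carries it to the membrane. Slc7a5 read 10.07, 9.85 and 9.79 in B6 and 9.83, 9.92 and 9.93 in B6-ChrYSJL, so that the highest and the lowest value were both from B6. Its difference was −0.01 ± 0.09 (SE; interval −0.21 to 0.18; FDR 0.965). It turned to 0.07 without B6 pool 1, and to 0.02 without B6-ChrYSJL pool 1.

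Slc3a2 read 10.00, 10.01 and 10.09 in B6 and 9.98, 9.88 and 10.16 in B6-ChrYSJL, where pools 2 and 3 held its lowest and highest value. The difference was −0.03 ± 0.08 (SE; interval −0.22 to 0.16; FDR 0.928), and it was 0.04 without B6-ChrYSJL pool 2 and 0.00024 without B6 pool 3. The 2 chains did not keep a fixed distance from pool to pool in either strain. Slc7a5 minus Slc3a2 was 0.07, −0.15 and −0.29 in B6 pools 1 to 3 and −0.14, 0.04 and −0.23 in B6-ChrYSJL pools 1 to 3, and the strain difference of this balance was 0.01 (exact permutation p = 0.9).

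Slc1a5 (ASCT2) is a sodium-dependent exchanger of glutamine and other small neutral amino acids, and Slc7a1 (CAT1) carries arginine and lysine. Slc1a5 read 9.63, 9.44 and 9.50 in B6 and 9.34, 9.58 and 9.32 in B6-ChrYSJL. B6-ChrYSJL pool 2 had the second highest value of the 6, and the other B6-ChrYSJL pools were below every B6 pool. The difference of Slc1a5 was −0.11 ± 0.09 (SE; interval −0.31 to 0.10), a ratio of 0.928, with an FDR of 0.705. It was −0.19 without B6-ChrYSJL pool 2, −0.07 without pool 1 and −0.06 without pool 3 of that strain, and −0.06 without B6 pool 1.

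Slc7a1 had the smallest p of the members, 0.112 before adjustment in limma, and an FDR of 0.561. It read 9.46, 9.40 and 9.29 in B6 and 9.20, 9.34 and 9.21 in B6-ChrYSJL. Again B6-ChrYSJL pool 2 was the pool that reached into the B6 range. The difference of Slc7a1 was −0.13 ± 0.07 (SE; interval −0.30 to 0.04), a ratio of 0.913 (0.811 to 1.03). Slc7a5 and Slc7a1 belong to the same family, and Slc7a5 minus Slc7a1 was 0.52 ± 0.08 in B6 and 0.64 ± 0.07 in B6-ChrYSJL. Their groups overlapped, and the difference of 0.12 had an exact permutation p of 0.2, and 0.75 after Benjamini-Hochberg adjustment over the 5 pairs compared.

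Slc38a1 (SNAT1) and Slc38a2 (SNAT2) are sodium-coupled carriers of glutamine and alanine, and Slc38a2 is the one whose transcript is known to respond to amino acid starvation. Slc38a1 read 9.04, 9.16 and 9.25 in B6 and 9.21, 9.16 and 9.07 in B6-ChrYSJL, with the B6-ChrYSJL pools inside the B6 range. It was the member with the smallest difference, −0.0015 ± 0.08 (SE; interval −0.18 to 0.17; FDR 0.995), and its sign turned when the values were quantile-normalized again, to 0.02, or when B6 pool 2 or 3 or B6-ChrYSJL pool 3 was left out. A second, dimmer cluster of Slc38a1 read 8.32, 8.51 and 8.45 in B6 and 8.36, 8.33 and 8.38 in B6-ChrYSJL, a difference of −0.07 ± 0.07 (SE; FDR 0.756). Slc38a1 was the only member with a second cluster.

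Slc38a2 read 10.25, 10.22 and 10.33 in B6 and 10.16, 10.21 and 10.16 in B6-ChrYSJL. It was the only member whose groups did not overlap, all B6-ChrYSJL pools being the lower ones, and the gap was 0.0099. Thus 1 of 10 members had no overlap with B6-ChrYSJL lower, where 9.42% of all tested transcripts did, and 0 of 10 with B6-ChrYSJL higher, where 7.68% did. The difference was −0.09 ± 0.06 (SE; interval −0.24 to 0.05), a ratio of 0.938, with an FDR of 0.641, and −0.06 without B6 pool 3. The balance of Slc38a1 minus Slc38a2 was −1.12 ± 0.08 in B6 and −1.03 ± 0.07 in B6-ChrYSJL, and the groups overlapped (exact permutation p = 0.3; 0.75 adjusted over the 5 pairs).

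Slc16a1 (MCT1) moves lactate and pyruvate in either direction, and Slc16a3 (MCT4) is the carrier that glycolytic cells use for lactate export. Slc16a1 read 8.00, 7.97 and 7.98 in B6 and 7.95, 7.89 and 8.03 in B6-ChrYSJL. The B6 pools lay close together, inside the wider B6-ChrYSJL range. Slc16a1 differed by −0.03 ± 0.07 (SE; interval −0.18 to 0.12; FDR 0.916), and by 0.0091 without B6-ChrYSJL pool 2.

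Slc16a3 read 6.70, 6.96 and 7.17 in B6 and 6.85, 6.85 and 6.99 in B6-ChrYSJL. All B6-ChrYSJL pools fell within the B6 range, which was the widest of any member, and the difference was −0.04 ± 0.12 (SE; interval −0.31 to 0.22; FDR 0.917). Without B6 pool 3 it turned to 0.07. The standard deviation of Slc16a3 within groups stood at percentile 92.6 of transcripts above background, while those of Slc16a1 and Slc38a2 stood at 16.5 and 12.1. Slc16a1 minus Slc16a3 was 1.04 ± 0.25 in B6 and 1.06 ± 0.04 in B6-ChrYSJL, a difference of 0.02 with an exact permutation p of 0.8. Adjusted over the 5 pairs, the p of this balance, of Slc2a1 minus Slc2a3 and of Slc7a5 minus Slc3a2 was 1.

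**Figure D2:**
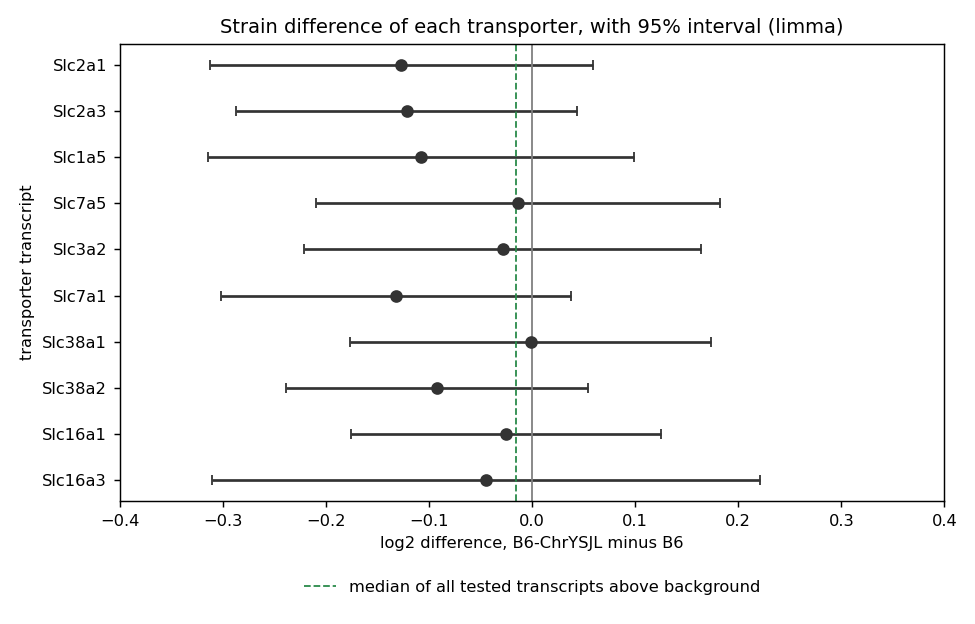
Strain difference of each transporter (log2, B6-ChrYSJL minus B6) from limma, as points with 95% intervals; the dashed line is the median of all tested transcripts above background, −0.02. Every interval includes zero, and the points run from −0.13 for Slc7a1 to −0.0015 for Slc38a1; with the values quantile-normalized again, those of Slc7a5 and Slc38a1 lie above zero.

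The members differ in how far the arrays can bound the strain difference. Standard errors ran from 0.06 for Slc38a2 to 0.12 for Slc16a3. Over all 10 members, the 95% intervals reached from a ratio of 0.804 at the lowest to 1.17 at the highest.

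Members did not share an order of the pools. B6 pool 1 had the highest value of Slc1a5, Slc7a5 and Slc7a1, but the lowest of Slc38a1 and Slc16a3. B6 pool 3 had the highest value of Slc2a1, Slc38a1, Slc38a2 and Slc16a3, and the lowest of Slc7a5. B6-ChrYSJL pools 1 and 2 each had the lowest value of 3 members and the highest of 0. Slc2a1, Slc7a1 and Slc38a2 were lowest in pool 1, and Slc2a3, Slc3a2 and Slc16a1 in pool 2. B6-ChrYSJL pool 3 was highest for Slc3a2 and Slc16a1 and lowest for Slc1a5.

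**Figure D3:**
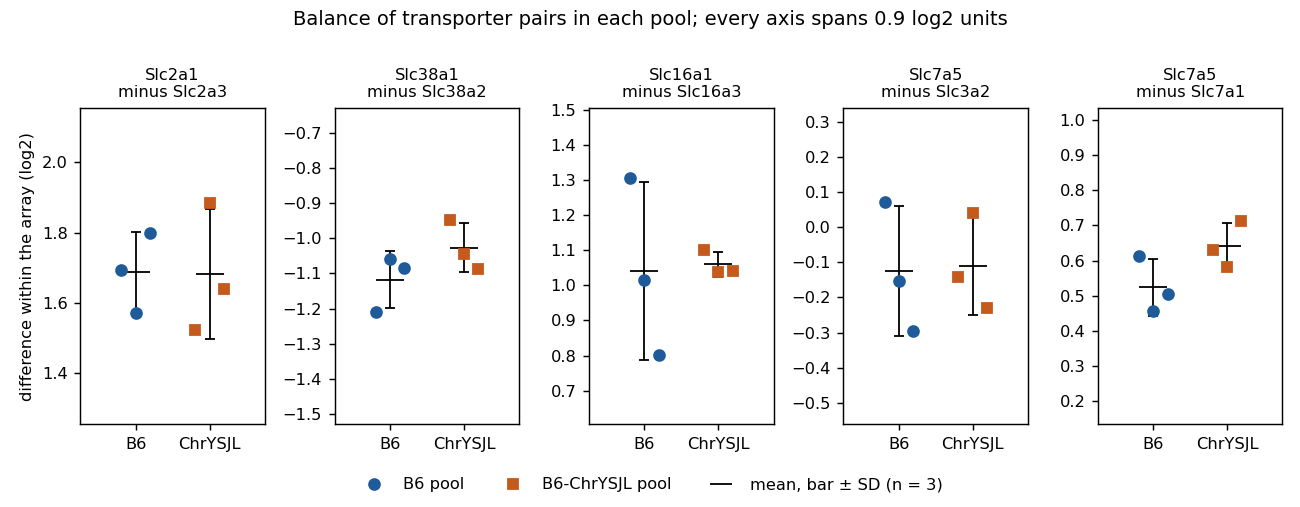
Value of one transporter minus that of a partner within each array (log2) for the 5 pairs compared, with B6 pools as circles, B6-ChrYSJL pools (labelled ChrYSJL) as squares and the mean ± SD of 3 pools as bars; every axis spans 0.9 log2 units. The groups overlap in all 5 pairs, and Slc16a1 minus Slc16a3 has the widest B6 spread, an SD of 0.25.

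For the 3 members with the smallest p, the transcripts whose pattern over the pools was most like theirs were found. Each transcript was centred on its own mean, and the root mean square distance from the member over the 6 arrays was taken as the measure of likeness among 12277 transcripts above background. Nearest to Slc2a1 were Mapk7 at 0.0194, Wdr48 at 0.0214 and Aifm1 at 0.0220, where the median distance of all candidates was 0.130. Mapk7 encodes the kinase ERK5 and Aifm1 a mitochondrial flavoprotein of cell death. Nearest to Slc2a3 were Idh2, the mitochondrial NADP-dependent isocitrate dehydrogenase, at 0.0230, Tmco3 at 0.0246 and Ndufaf7, an assembly factor of respiratory complex I, at 0.0247, against a median of 0.123. Nearest to Slc7a1 were Tmem38b at 0.0238, Reps1 at 0.0243 and Zfp451 at 0.0262, against 0.125. With 6 arrays and so many candidates, distances of this size are a description of these pools.

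HIF-1 binds short cores that include ACGTG, the only one of them searched here, and Myc binds the E-box CACGTG. The promoters of a glucose carrier and of the lactate carriers are shown because such carriers are among the known targets of these factors. RefSeq promoter windows (GRCm38.p6; 250 bases before to 50 after the start site) were matched for 6 of 10 members, in 7 windows. The windows below belong to Slc2a1 (chr4:119108495-119108794, plus strand), Slc16a1 (chr3:104638414-104638713, plus strand) and Slc16a3 (chr11:120948817-120949116, plus strand), written 5′ to 3′ with the places of ACGTG or its reverse complement in capitals.
Slc2a1: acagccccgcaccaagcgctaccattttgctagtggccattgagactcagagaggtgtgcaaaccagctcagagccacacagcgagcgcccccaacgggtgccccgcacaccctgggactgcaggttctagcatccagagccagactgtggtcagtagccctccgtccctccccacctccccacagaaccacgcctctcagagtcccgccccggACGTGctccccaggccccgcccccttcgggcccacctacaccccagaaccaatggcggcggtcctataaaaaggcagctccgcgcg
Slc16a1: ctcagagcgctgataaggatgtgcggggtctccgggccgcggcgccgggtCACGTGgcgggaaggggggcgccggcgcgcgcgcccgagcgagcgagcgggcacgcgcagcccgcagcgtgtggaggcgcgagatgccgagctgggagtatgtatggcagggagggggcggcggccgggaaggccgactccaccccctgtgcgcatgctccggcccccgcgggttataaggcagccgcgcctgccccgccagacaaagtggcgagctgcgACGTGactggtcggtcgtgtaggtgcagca
Slc16a3: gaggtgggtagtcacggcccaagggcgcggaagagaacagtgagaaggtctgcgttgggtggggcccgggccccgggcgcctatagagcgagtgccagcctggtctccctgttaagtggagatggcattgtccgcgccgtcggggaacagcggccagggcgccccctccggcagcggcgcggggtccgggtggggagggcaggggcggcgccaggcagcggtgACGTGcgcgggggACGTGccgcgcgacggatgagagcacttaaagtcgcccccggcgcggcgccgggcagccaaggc

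Read on both strands, ACGTG was present in 4 of the 7 member windows, those of Slc2a1, Slc3a2, Slc16a1 and Slc16a3, and in 19.6% of all 32851 promoter windows of the same length. In Slc2a1 it began 36 bases before the start site, and in Slc16a3 the places began 27 and 14 bases before it. The Slc3a2 window holds it on the other strand, 164 bases before the start. CACGTG, which contains ACGTG on either strand, was in 1 of the 7, that of Slc16a1, beginning 200 bases before the start, and in 7.15% of all windows. The GC box GGGCGG was in 6 of the 7 member windows, at least 1 for each gene and not in the second of Slc7a1, and in 35.7% of all windows. These are matches of letters only. The member windows held 7 to 42 CG pairs, and the shares over all windows were not adjusted for this. No window was matched for Slc2a3, Slc1a5, Slc7a5 and Slc38a1. Hif1a, the oxygen-regulated subunit of HIF-1, read 8.90 to 9.04 in B6 and 8.95 to 9.16 in B6-ChrYSJL, a difference of 0.10 ± 0.08 (SE; FDR 0.693). Myc was lower in B6-ChrYSJL without overlap between groups, as were 9.42% of all tested transcripts. It read 11.01 to 11.05 in B6 and 10.85 to 10.97 in B6-ChrYSJL, and differed by −0.09 ± 0.06 (SE; FDR 0.649). Slc2a1, Slc16a1 and Slc16a3 differed by −0.13, −0.03 and −0.04, as given above.

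Of 127 other genes listed around the transporters, 120 were measured, and 0 passed an FDR of 0.05 in limma. At an unadjusted p under 0.05, 9 of 120 were lower and 4 higher in B6-ChrYSJL, where the shares over all tested transcripts were 5.92% and 4.69%. The lower ones were 4 without B6 pool 2 or B6-ChrYSJL pool 3 and 5 without B6 pool 3 or B6-ChrYSJL pool 2, and the higher ones were 2 without B6 pool 3. The median difference of the 120 genes was −0.0091. Each gene was counted by its cluster with the highest mean. Hk1, counted as higher, had a second cluster that was lower at an unadjusted p under 0.05 in limma. Second clusters of Ldhb and Glul, both counted as lower, did not reach that p.

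The other glucose transporters, 12 of 12 measured, had no gene at an unadjusted p under 0.05 and a median of 0.10, with 7 of 12 above background. The smallest p values were those of Slc2a10, with a difference of 0.15 (FDR 0.529), and Slc2a4 (GLUT4), the insulin-responsive carrier of muscle and fat, with 0.17 (FDR 0.538), which was below background. Of the other amino acid transporters, all 29 were measured. At an unadjusted p under 0.05, 2 were lower and 2 higher, where 5.92% and 4.69% of all tested transcripts were. The lower ones were Slc36a4, a proton-coupled amino acid carrier, at −0.21 (FDR 0.373), and Slc43a3, a relative of the leucine carriers known to transport purine bases, at −0.22 (FDR 0.432). The higher ones, the glutamate carriers Slc1a1 at 0.25 and Slc1a3 at 0.21, were below background on all arrays.

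Slc16a1 and Slc16a3 reach the membrane with the chaperone basigin, and Slc16a1 can also use embigin. Basigin (Bsg) read 9.30 to 9.39 in B6 and 9.26 to 9.37 in B6-ChrYSJL, a difference of −0.01 ± 0.07 (SE; FDR 0.968) that turned to 0.01 when the values were quantile-normalized again. Embigin (Emb) differed by 0.09 ± 0.07 (SE; FDR 0.704). Of the other monocarboxylate transporters and chaperones, Bsg and Emb included, 12 of 13 were measured, and 0 had an unadjusted p under 0.05 in limma. Slc5a8, a sodium-coupled carrier, had the smallest p, with a difference of −0.20 (FDR 0.506), and was below background.

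Of the glycolysis and lactate enzymes, 17 of 20 were measured. Ldha, which makes lactate from pyruvate, differed by −0.04 ± 0.08 (SE; FDR 0.872). Ldhb, the isoform that favours lactate use, read 8.67 to 8.85 in B6 and 8.39 to 8.62 in B6-ChrYSJL without overlap, a difference of −0.25 (FDR 0.392). Its dimmer cluster differed by −0.11 (FDR 0.647). Hk1, the hexokinase that traps glucose in the cell, had clusters that disagreed: the brighter differed by 0.28 (FDR 0.400) and the other by −0.26 (FDR 0.321), each without overlap between groups. Among all tested transcripts, 9.42% were lower and 7.68% higher in B6-ChrYSJL without overlap.

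Of the enzymes of amino acid use, 16 of 18 were measured. At an unadjusted p under 0.05, 2 were lower and 0 higher, where 5.92% and 4.69% of all tested transcripts were. The lower ones were Glul, glutamine synthetase, at −0.17 (FDR 0.436) and Phgdh, the first enzyme of serine synthesis, at −0.16 (FDR 0.448). A second cluster of Glul differed by 0.07 (FDR 0.809). Of the genes of nutrient sensing and control, 34 of 35 were measured, and 4 were lower and 1 higher at an unadjusted p under 0.05. The 4 lower ones were Mtor, the kinase of the growth pathway, at −0.19 (FDR 0.386), the Rag GTPases Rragb at −0.22 and Rragd at −0.19, which bring that kinase to the lysosome, and Irf4, a transcription factor of activated T cells, at −0.20. Pdpk1, the kinase that activates Akt, was higher by 0.17 (FDR 0.466). Txnip, which restrains glucose uptake through Slc2a1, differed by 0.06 (FDR 0.853). None of these genes passed an FDR of 0.05, so their differences are given as values.

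**Figure D4:**
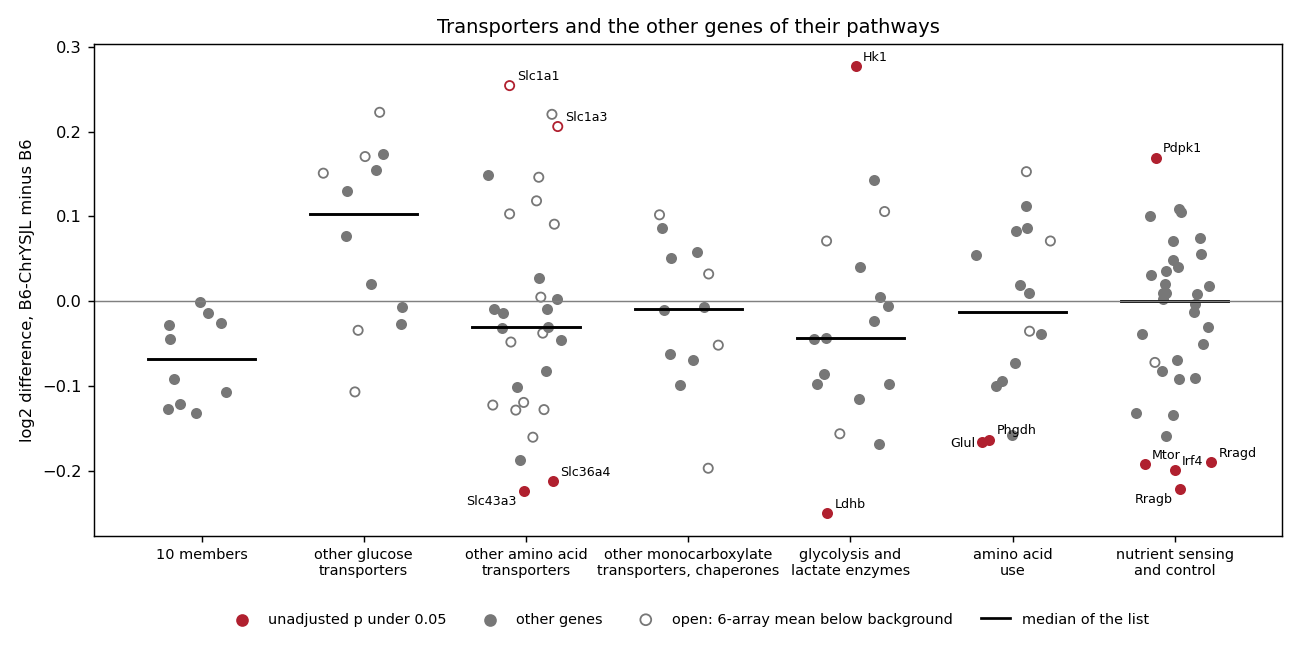
Strain difference (log2, B6-ChrYSJL minus B6) of the 10 transporters and of each other gene of 6 lists around them, 1 point per gene, with a line at each list's median; red marks an unadjusted limma p under 0.05 and open points lie below background. The transporters lie between −0.13 and −0.0015, and the lists have their highest value at Hk1, 0.28, and their lowest at Ldhb, −0.25. Each gene stands at its cluster with the highest mean, and the other clusters of Hk1 and Ldhb differ by −0.26 and −0.11. With values quantile-normalized again, 8 of the 10 transporters lie below zero.

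The sorted cells carried the T cell transcripts far above background on every array. The mean of Cd4 was 11.54 ± 0.06 for the B6 pools and 11.51 ± 0.03 for the others, and that of Cd3e 12.49 and 12.50. Of 7 T cell markers 0 had an unadjusted p under 0.05. Cd5 and Cd28 did not overlap between groups, with differences of −0.08 and 0.08 (FDR 0.704 and 0.689). Of all tested transcripts, 9.42% were lower and 7.68% higher without overlap. Of 5 naive T cell markers 0 had an unadjusted p under 0.05, Ccr7 differing by 0.11 and Klf2 by −0.14.

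Markers of activated or memory T cells are given beside the transporters, since these carriers are known to be raised on activation. The list does not part activated from memory cells. Of 13 such markers, 9 were lower in B6-ChrYSJL at an unadjusted p under 0.05, where 5.92% of all tested transcripts were, and 0 passed an FDR of 0.05. The list was chosen with earlier results of these data known, so the count beside this share is no independent test. S100a6, S100a4 and the chemokine receptor Cxcr3 differed by −0.77, −0.61 and −0.53. Tnfrsf9, Cd44, Tnfrsf4 and Icos differed by −0.29, −0.26, −0.26 and −0.20, and Tnfrsf4 lost its unadjusted p under 8 of 16 alternatives. The chemokine receptor Ccr2 and the proliferation marker Mki67 averaged 6.46 and 6.44 in B6 and were below background in all B6-ChrYSJL pools. The other markers were Cd69 at 0.13, Tfrc at 0.03, Cd40lg at 0.01 and Il2ra at −0.02. The mean level of the 13 markers was 8.77 to 8.89 in B6 pools and 8.40 to 8.57 in B6-ChrYSJL pools. That of the 10 transporters was 9.08 to 9.13 in B6 and 9.005 to 9.06 in B6-ChrYSJL. Neither mean overlapped between groups. The mean of the CD8 list, lower in B6-ChrYSJL, and that of the endothelial and stromal list, higher there, did not overlap either. Other glucose transporters had a higher mean level in B6-ChrYSJL, without overlap, at 6.21 to 6.27 against 6.15 to 6.19 in B6. How often means over lists in general do not overlap was not determined. Taken singly, 1 of 10 transporters was lower without overlap, where 9.42% of all tested transcripts were. A link between the transporters and the markers was not tested.

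Markers of other cell types are given for the same purpose, and their lists were also chosen with earlier results of these data known. The CD8 transcripts Cd8a and Cd8b1 differed by −0.54 and −0.28 (FDR 0.277 and 0.376). Both (2 of 2) were lower at an unadjusted p under 0.05, where 5.92% of all tested transcripts were. Their mean levels were 7.42 to 7.62 in B6 and 7.03 to 7.18 in B6-ChrYSJL. Of 9 B cell markers, H2-Ab1 and H2-Eb1 were higher by 0.64 and 0.37 at an unadjusted p under 0.05, where 4.69% of all tested transcripts were higher. The B cell mean level was 6.39 to 6.48 in B6 and 6.38 to 6.91 in B6-ChrYSJL, with Ms4a1 and Blk below background. Of the 8 endothelial and stromal markers, Col3a1, Pdpn and Pdgfra were higher at an unadjusted p under 0.05. They differed by 0.18, 0.20 and 0.25, the last below background on all arrays. That list's mean level was 6.39 to 6.43 in B6 and 6.49 to 6.602 in B6-ChrYSJL. Of 7 macrophage and dendritic markers Lyz2 and Cd68 were above background, with differences of −0.24 and −0.04. Itgax and Adgre1, at 0.17 and −0.10, were below background on all arrays, and Itgax lost its unadjusted p under 11 alternatives. Of 8 granulocyte markers 1 was above background and 0 had an unadjusted p under 0.05, with Ngp at 0.22 and Mpo at 0.14. The erythroid list had 3 measured genes and 0 such calls, with Alas2 at −0.08 and Slc4a1 at 0.08. The part of any of these cells in the transporter values was not tested.

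**Figure D5:**
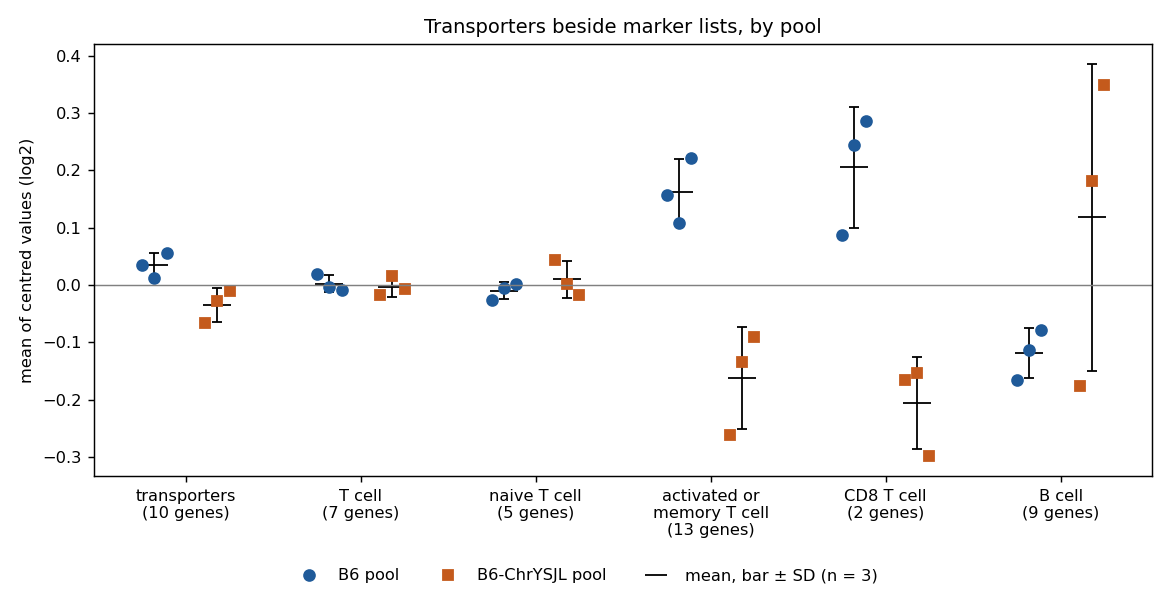
Mean over a list of values centred on each gene's own 6-array mean (log2), for the 10 transporters and 5 marker lists, in B6 pools (circles) and B6-ChrYSJL pools (squares), with bars at the mean ± SD of 3 pools. The transporter means are 0.03 ± 0.02 in B6 and −0.03 ± 0.03 in B6-ChrYSJL, and those of the activated or memory markers 0.16 ± 0.06 and −0.16 ± 0.09.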

How the data were processed

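Transcripts of CD4+TCRβ+ cells were measured on Affymetrix Mouse Gene 1.0 ST arrays, 1 per pool, from 50 ng of total RNA that was amplified to cDNA. The authors ran RMA in Partek Genomic Suites, and the deposited values are on the log2 scale, 1 per transcript cluster and array. GCOS and mm9 stand in the submitters' processing notes too. The values were used as they are. Clusters were named through the platform annotation. Of 35556 clusters, the 23410 with a symbol entered the linear model of limma 3.58.1 (lmFit and eBayes; R 4.3.3), with Benjamini-Hochberg adjustment (FDR) over all of them, and those with several symbols (1621) were not named. The median standard error was 0.08. The number of arrays and the signal over background limit the precision. Pair balances were tested with scipy 1.17.1. Pools are biological replicates by the labels.

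The members and gene lists were chosen with earlier results of these data known. Named were all members, list genes at an unadjusted p under 0.05, the 2 smallest p values per list, genes that members work with (Bsg, Emb, Myc, Hif1a, Txnip, Ldha, Ldhb), Cd4 and Cd3e, and the 3 transcripts most alike to each of 3 members. Listed genes without a cluster of 1 symbol (17) were not analysed here. Also tried were unmoderated, trended and robust variances, array weights, filters, other scalings, the mean over clusters, a replicate block and leaving out single arrays. The fit was tested on simulated data.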

Additional observations from a re-analysis of the deposited data

How the results depend on the processing

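The number of members called stayed at 0, by FDR and by unadjusted p, under all 16 alternatives, with a lowest member p of 0.0523 in limma. Of 160 member differences, 149 kept their sign and 11 turned. Slc2a1, Slc2a3, Slc1a5, Slc7a1 and Slc38a2 turned under none, but with an array left out they ran from −0.18 to −0.059, −0.16 to −0.070, −0.19 to −0.056, −0.18 to −0.093 and −0.12 to −0.061. Quantile-normalizing again gave 0.0010 for Slc7a5, 0.022 for Slc38a1, 0.014 for Bsg and −0.016 for Cd3e, and median-centring gave −0.0098 for Cd3e. Leaving out each array in turn gave −0.070 to 0.069 for Slc7a5, −0.10 to 0.035 for Slc3a2, −0.054 to 0.046 for Slc38a1, −0.062 to 0.0091 for Slc16a1, −0.17 to 0.070 for Slc16a3, −0.033 to 0.026 for Bsg, −0.094 to 0.0010 for Ldha, −0.026 to 0.11 for Txnip, −0.0062 to 0.13 for Slc4a1, −0.054 to 0.00072 for Cd4 and −0.00413 to 0.017 for Cd3e. It gave −0.11 to 0.074 for Slc2a1 minus Slc2a3, −0.10 to 0.15 for Slc16a1 minus Slc16a3, and −0.070 to 0.11 for Slc7a5 minus Slc3a2.

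The count of all tested transcripts past an FDR of 0.05, 4, was 0 without moderation, 55 with a mean-variance trend, 13 among those above background, 0 over all deposited clusters, 11 with median-centring, 2 with quantile normalization again, 8 with the mean over a gene's clusters, and 0 (without B6 pool 2 or either of B6-ChrYSJL pools 1 and 2) to 7 (without B6 pool 3) with an array left out. The pathway genes at an unadjusted p under 0.05 were 4 to 8 lower and 2 to 4 higher with an array left out, and 2 higher among those above background. Of the 13 pathway genes at an unadjusted p under 0.05, each lost it under 1 alternative (Slc36a4) to 7 (Phgdh, Pdpk1). The causes were not tested. Same-numbered pools did not deviate together (correlations of −0.04 to −0.0001), which gave no ground for pairing them. Whether same-numbered pools were handled together cannot be told from these values. With the replicate block, 0 members had an unadjusted p under 0.05, and 3 transcripts passed an FDR of 0.05.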

Other observations

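Among 352 other solute carrier genes, which move ions, metals, peptides and metabolites, 0 passed an FDR of 0.05 in limma. At an unadjusted p under 0.05, 23 were lower and 15 higher in B6-ChrYSJL, where 5.92% of all tested transcripts were lower and 4.69% higher. Of the 209 above background, 19 were lower and 4 higher, with a median difference of −0.03, where 1031 of all 14394 tested transcripts above background were lower and 574 higher. The 4 with the smallest p were named after their values were seen, and all were lower in B6-ChrYSJL without overlap between groups, as were 9.42% of all tested transcripts. Slc9a7, a sodium/proton exchanger of the Golgi network, read 6.75, 6.88 and 6.93 in B6 and 6.33, 6.601 and 6.34 in B6-ChrYSJL, a difference of −0.43 ± 0.09 (SE; FDR 0.254). Slc35b4, a nucleotide sugar carrier, differed by −0.26, Slc39a9, a zinc carrier, by −0.23, and Slc15a2, a peptide carrier, by −0.38, with limma FDRs of 0.319, 0.323 and 0.344.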
